A study of Mus musculus with 10 samples.

Results

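The genes described here are 9 that make, modify or transport the lipids of the epidermal barrier, namely Alox12b, Aloxe3, Abca12, Cers3, Elovl4, Sdr9c7, Ugcg, Smpd3 and Sult2b1. They were chosen by name from what they are known to do, out of 30748 genes with a named feature. Earlier results of these data were known when the 9 genes were chosen. Each was measured on 1 transcript cluster of an Affymetrix mouse Clariom D array, and all 9 passed the filter on dim signals. RNA came from the wound edge of db/db mice, diabetic animals that carry the Lepr db mutation (BKS(D)-Leprdb/JOrlRj, on a C57BL/6 background per the labels) and lack a working leptin receptor. All were male, 11 weeks old on entry, and received 2 full-thickness back wounds from a 4 mm punch. Into the skin around every wound went 0.5 nmol of either miR-132 mimic or control mimic, with an in vivo transfection carrier, spread over 4 sites in 100 µl. The edge was sampled 6 days after injury from 5 mice per group. All groups share the diabetes mutation, the wound and the carrier, so no unwounded, untreated or non-diabetic skin enters the comparison. The sources used here do not say whether 1 or both wounds of a mouse went into a sample.

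The outermost layer of the epidermis is sealed by stacked sheets of ceramides, cholesterol and free fatty acids between dead keratinocytes. Keratinocytes of the granular layer elongate fatty acids, join them to a sphingoid base, attach linoleate and glucose, and load the product into lamellar bodies that are secreted at the surface. Lipoxygenases then oxidise the linoleate, after which ceramides can be bound to the protein envelope of the cell. Loss of several of these enzymes in people causes ichthyosis, a scaling skin disease.

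The agent under test is a synthetic form of miR-132, a microRNA whose bases 2 to 8, the seed, pair with the messenger RNAs it lowers. The labels do not say which arm of the hairpin the mimic copies. Both mature mouse sequences in RefSeq (GRCm38.p6) are therefore shown, with the seed in capitals.
mmu-miR-132-3p: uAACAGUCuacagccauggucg
mmu-miR-132-5p: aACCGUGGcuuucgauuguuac
The Mir132 feature on the array lay below the filter, at 3.38 ± 0.41 in miR-132 wounds and 3.21 ± 0.25 in control wounds (log2 signal, SD, n = 5). It is designed on the gene's own transcript and does not show how much mimic reached the tissue.

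Values are log2 signals, so a difference of 1 is a 2-fold change. Within a gene they can be compared between arrays, but not between genes. The signal span between the 10th and 90th percentile was 4.81 to 5.03 on control arrays and 4.41 to 4.92 on miR-132 arrays, narrowest on miR-132 replicates 2 (4.41) and 5 (4.63). Values were capped at 19.93, and 0 of the 9 genes reached that limit. Their 90 values lay between 5.84 and 17.54, while the median of the array's background features was 3.05 to 3.36. Some markers of skin epithelium were high in all samples. Krt5 and Krt14, keratins of the basal layer, stood at the limit on 8 and 9 of 10 arrays, and Krt1, a suprabasal keratin, on 10 of 10. Other markers were not high throughout, as Flg2, a filaggrin relative, ran from 4.19 to 16.43 over the arrays.

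All 9 barrier lipid genes averaged lower in miR-132 wounds than in control wounds, by 0.40 to 1.51 on the log2 scale, but none passed the test. The widest differences were in Alox12b, 2.84-fold lower on average, and Cers3, 2.56-fold lower. Their median difference was -0.90, against -0.02 over all 17637 genes tested, of which 53.6% averaged lower. In limma's test with Benjamini-Hochberg adjustment over all genes, 0 of 9 had an adjusted p under 0.05 (range 0.597 to 0.739), and 0% of all genes did. Before adjustment, Cers3 and Elovl4 (2 of 9) lay under 0.05 as lower genes, against 5.61% of all genes. That count was 0 of 9 when miR-132 replicate 2, 4 or 5 or control replicate 3, 4 or 5 was left out. Over all 17637 genes it was then 618 to 1047. With array weights it was 7 of 9, against 1192 of all 17637 genes. Of the 1425 genes under 0.05 before adjustment 989 were lower, and after a further quantile normalization 576 of 1188 were. Brighter genes leaned lower. Among the 10299 genes with a mean above 5.66, which include all 9, the median difference was -0.07. In that set 933 genes lay under 0.05 before adjustment, and 855 of them were lower. In each of the 9 genes, 4 of 5 miR-132 arrays lay below the control mean, which held for at least 4 of 5 arrays in 30.8% of all genes. The groups overlapped in all 9. The lower groups did not overlap in 0.646% of all genes. The labels give 5 mice per group, and that number limits the precision of every value.

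**Figure D1:**
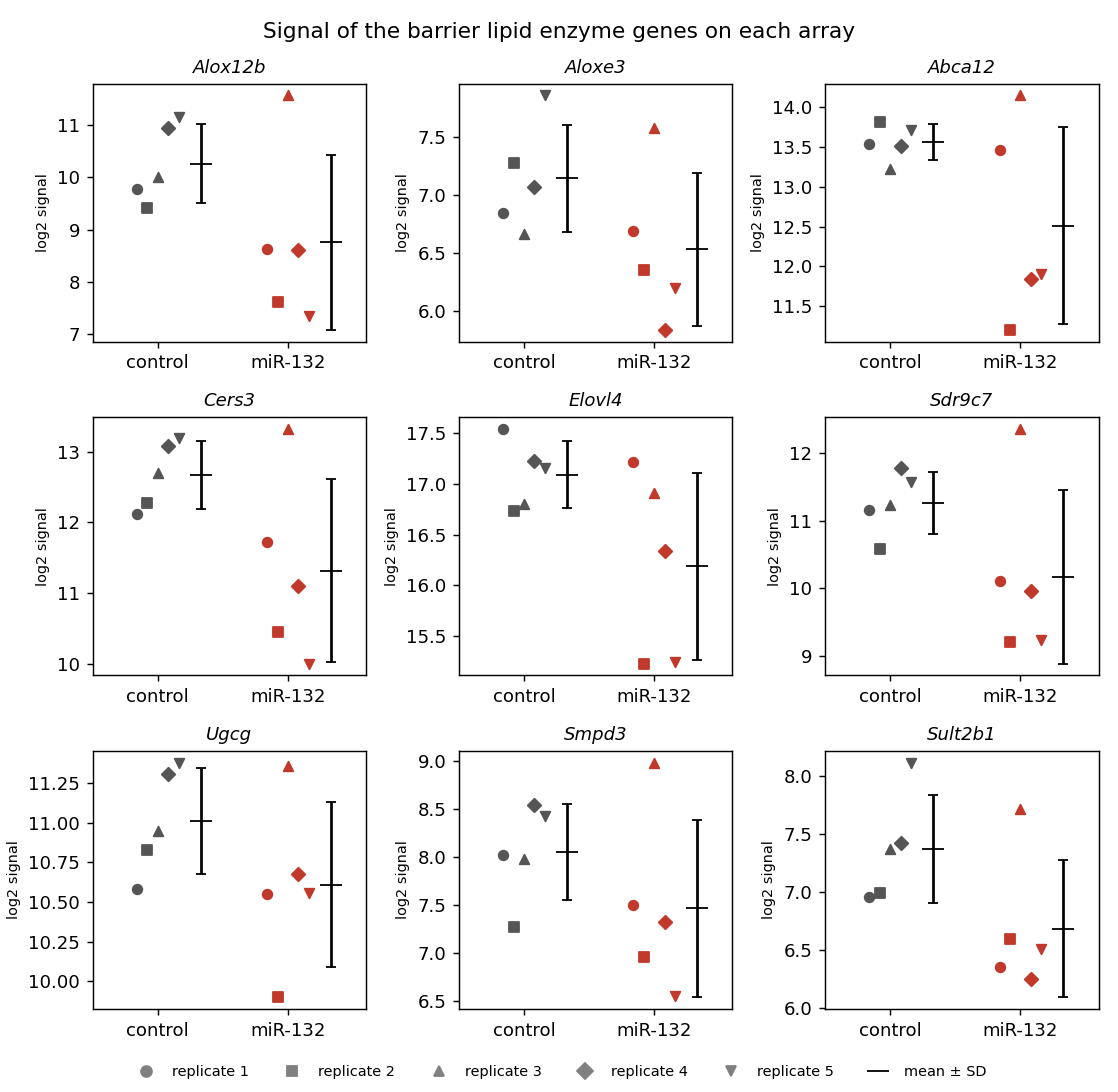
Log2 signal (vertical axis, scaled for each gene) of the 9 barrier lipid genes on 5 control arrays (grey) and 5 miR-132 arrays (red), with the mean and SD beside the points and marker shapes for the replicate number, which does not pair animals. Most miR-132 points fall low. Replicate 3 (triangle) stands above the control mean in 8 genes and just under it in Elovl4. Replicate 1 (circle) lies above the control mean in Elovl4 and inside the control range in Abca12.

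The lipoxygenase branch comes first. Alox12b encodes the enzyme that oxidises the linoleate of acylceramides, Aloxe3 the enzyme that turns the product into an epoxy alcohol, and Sdr9c7 a dehydrogenase that acts on that alcohol. Alox12b (cluster TC1100000903.mm.1) read 9.78, 9.41, 10, 10.95 and 11.16 in control replicates 1 to 5 and 8.62, 7.61, 11.57, 8.61 and 7.35 in miR-132 replicates 1 to 5. Replicates 1, 2, 4 and 5 lay below every control, and replicate 3 lay above every control. The log2 difference was -1.51 ± 0.75 (SE, n = 5 per group), with a 95% interval of -3.18 to 0.17 and limma's adjusted p of 0.641. Aloxe3 (TC1100000902.mm.1) read 6.85, 7.28, 6.67, 7.07 and 7.86 in controls and 6.69, 6.36, 7.58, 5.84 and 6.20 with miR-132. Replicates 2, 4 and 5 were below all controls, replicate 1 just above the lowest of them. Its difference was -0.61 ± 0.33 (SE), less than that of Alox12b in size, and limma's adjusted p was 0.656. Sdr9c7 (TC1000001577.mm.1) read 11.16, 10.58, 11.24, 11.78 and 11.57 in controls and 10.11, 9.21, 12.36, 9.96 and 9.24 with miR-132. As in Alox12b, replicates 1, 2, 4 and 5 were under all controls and replicate 3 over all of them. The difference was -1.09 ± 0.56 (SE), 2.13-fold lower on average, with limma's adjusted p at 0.653.

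Elovl4 and Cers3 build the ceramide. Elovl4 extends fatty acids to the very long chains found in skin, and Cers3 is the ceramide synthase that joins those chains to the sphingoid base. Elovl4 (TC0900002767.mm.1) read 17.54, 16.73, 16.80, 17.22 and 17.16 in controls and 17.21, 15.23, 16.91, 16.34 and 15.25 with miR-132. Here replicates 2, 4 and 5 were below all controls, while replicates 1 and 3 lay inside the control range. The difference was -0.90 ± 0.40 (SE, interval -1.79 to -0.02), and limma's adjusted p was 0.617. Cers3 (TC0700000999.mm.1) read 12.11, 12.27, 12.70, 13.08 and 13.19 in controls and 11.72, 10.44, 13.32, 11.10 and 10 with miR-132. All miR-132 arrays other than replicate 3 were under the lowest control. The difference of -1.35 ± 0.57 (SE, interval -2.62 to -0.09) had limma's adjusted p at 0.597, the lowest of the 9 genes.

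Ugcg and Abca12 handle the finished lipid. Ugcg encodes glucosylceramide synthase, which adds glucose to ceramide, and Abca12 the transporter that loads glucosylceramide into lamellar bodies. Ugcg (TC0400000654.mm.1) read 10.58, 10.83, 10.95, 11.31 and 11.38 in controls and 10.55, 9.90, 11.36, 10.68 and 10.56 with miR-132. Replicates 1 and 5 lay just under the lowest control, and replicate 2 stood farther below it. The difference, -0.40 ± 0.27 (SE), was the smallest of the 9 genes (-0.22 without miR-132 replicate 2), and limma's adjusted p was 0.713. Abca12 (TC0100002543.mm.1) read 13.54, 13.82, 13.22, 13.51 and 13.72 in controls and 13.46, 11.20, 14.15, 11.84 and 11.90 with miR-132. The controls spanned 0.60, the narrowest range among the 9, whereas miR-132 arrays spanned 2.95. Replicates 2, 4 and 5 lay well under the controls, replicate 1 within them and replicate 3 above them. The difference was -1.05 ± 0.51 (SE), 2.07-fold lower on average, and limma's adjusted p was 0.635.

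The remaining genes are Smpd3, a neutral sphingomyelinase that frees ceramide from sphingomyelin, and Sult2b1, which makes cholesterol sulfate, a lipid that holds corneocytes together and restrains their shedding. Smpd3 (TC0800002856.mm.1) read 8.02, 7.27, 7.98, 8.54 and 8.42 in controls and 7.50, 6.96, 8.98, 7.32 and 6.55 with miR-132. Only replicates 2 and 5 were under all controls, of which replicate 2 was itself low. The difference was -0.58 ± 0.43 (SE; -0.96 without miR-132 replicate 3 and -0.36 without replicate 5) with limma's adjusted p of 0.739, the highest of the 9. Sult2b1 (TC0700003019.mm.1) read 6.96, 6.99, 7.37, 7.43 and 8.12 in controls and 6.36, 6.60, 7.72, 6.25 and 6.51 with miR-132. Replicates 1, 2, 4 and 5 formed a tight group of 6.25 to 6.60 below all controls, and replicate 3 lay inside the control range. The difference was -0.69 ± 0.31 (SE, interval -1.38 to 0.01), with limma's adjusted p at 0.621.

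The miR-132 arrays differed among themselves more than the controls did. The SD over arrays was larger with miR-132 in 9 of 9 genes, by 1.26 times in Sult2b1 to 5.38 times in Abca12, as it was in 68.1% of all genes. The 9 genes had a median SD of 0.46 among control arrays and of 0.92 among miR-132 arrays, where all genes had 0.17 and 0.23. Replicates 2 and 5 lay below the lowest control in 9 of 9 genes each, replicate 4 in 7, replicate 1 in 5 and replicate 3 in 0. Over all genes tested, those shares were 39.6%, 26.7%, 16.6%, 20.6% and 18.9%. Replicate 3 lay above the highest control in 5 genes (Alox12b, Abca12, Cers3, Sdr9c7 and Smpd3), which 14.4% of all genes did. After quantile normalization, replicates 2 and 5 were below the lowest control in 8 genes each (26.2% and 21.7% of all genes were). The other counts were the same, with shares of 17.9%, 19.2% and 21.2% of all genes for replicates 4, 1 and 3. Replicate 3 then lay above the highest control in 14.5% of all genes.

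The differences were wider without miR-132 replicate 3. That array is singled out here by its high values in these genes, so the wider differences follow from the choice and are given as a description that supports nothing. With it left out, the median difference was -1.08 and 9 of 9 genes had an unadjusted p under 0.05 as lower genes, against 10.4% of all genes. Still 0 of 9 passed adjustment, whereas 52 of all genes did, all of them lower (0.295%), and 0 of all genes did once the values were quantile normalized or the replicate number was added as a block. Sdr9c7 came nearest, at -1.64 ± 0.30 (SE, n = 4 and 5) with limma's adjusted p at 0.0690. Alox12b stood at -2.21 ± 0.44 and Cers3 at -1.86 ± 0.38, both with an adjusted p of 0.0915. After quantile normalization 8 of 9 genes lay under 0.05 before adjustment (7.17% of all genes did as lower genes). Replicates 2 and 5 had the narrowest signal span, but they also lay lowest on average in these genes. Smaller differences without them therefore follow from that choice. With both left out, all 9 genes still averaged lower, and the median difference was -0.44. Before adjustment 0 of 9 lay under 0.05, against 401 of all 17637 genes as lower genes.

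**Figure D2:**
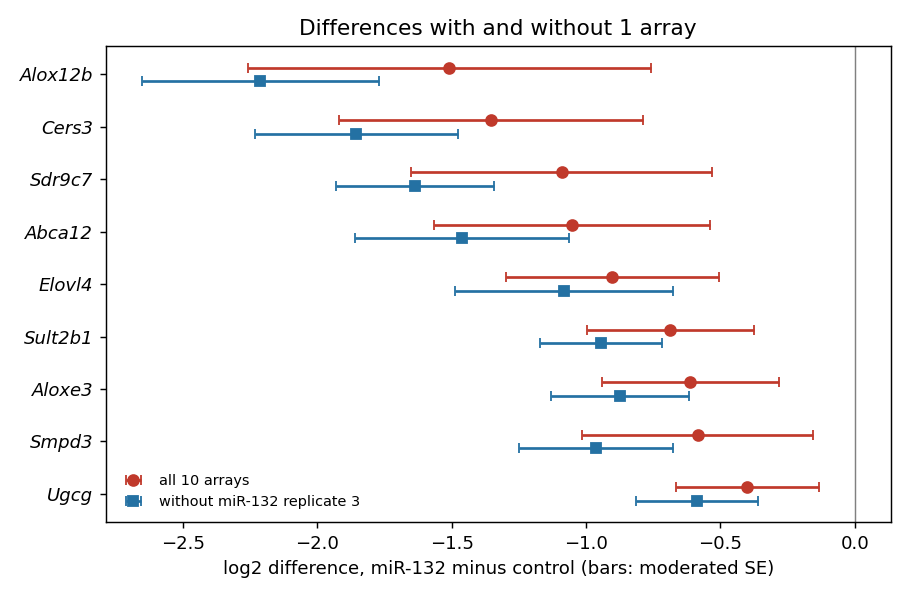
Log2 difference of miR-132 minus control (horizontal axis) for each of the 9 genes with its moderated SE, from all 10 arrays (red circles) and without miR-132 replicate 3 (blue squares). All 18 values lie below 0, from -0.40 in Ugcg with all arrays to -2.21 in Alox12b without replicate 3.

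The 9 genes followed each other from array to array. Over the 36 pairs of genes, Pearson's r across the 10 arrays ranged from 0.48 (Elovl4 with Sult2b1) to 0.99 (Alox12b with Sdr9c7), with a median of 0.82. After each group's mean was subtracted, the median was 0.76. These are descriptions over arrays that share their RNA and normalization, and they weigh replicate 3 against replicates 2 and 5. Among the 5 controls alone the median was 0.59, and some pairs ran opposite ways, such as Abca12 with Sdr9c7 at -0.34. Cers3 (0.98), Alox12b (0.98) and Sdr9c7 (0.97) were closest to the mean of the other 8 genes, and Elovl4 (0.78) was the farthest. On replicate 1 the genes split, as Elovl4 lay above its control mean there while Alox12b, Cers3, Sdr9c7 and Sult2b1 lay below every control.

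The promoters of the 3 genes closest to the mean of the others are shown so that the sequence before their start can be compared. RefSeq windows (GRCm38.p6) of 250 bases before to 50 after the gene start were matched for 7 of the 9 genes, with 8 windows. Capitals mark the motifs found.
Alox12b promoter, chr11:69156822-69157121, plus strand: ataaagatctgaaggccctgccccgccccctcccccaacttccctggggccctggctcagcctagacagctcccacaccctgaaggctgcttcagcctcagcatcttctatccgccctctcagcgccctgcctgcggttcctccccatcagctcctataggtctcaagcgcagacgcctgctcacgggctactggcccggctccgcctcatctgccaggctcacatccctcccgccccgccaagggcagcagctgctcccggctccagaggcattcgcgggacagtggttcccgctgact
Cers3 promoter, chr7:66743254-66743553, plus strand: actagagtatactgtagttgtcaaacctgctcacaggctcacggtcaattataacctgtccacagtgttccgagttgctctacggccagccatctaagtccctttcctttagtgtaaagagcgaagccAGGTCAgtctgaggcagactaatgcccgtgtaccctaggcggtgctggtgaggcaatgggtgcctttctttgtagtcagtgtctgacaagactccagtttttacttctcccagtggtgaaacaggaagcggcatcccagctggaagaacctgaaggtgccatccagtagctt
Sdr9c7 promoter, chr10:127898285-127898584, plus strand: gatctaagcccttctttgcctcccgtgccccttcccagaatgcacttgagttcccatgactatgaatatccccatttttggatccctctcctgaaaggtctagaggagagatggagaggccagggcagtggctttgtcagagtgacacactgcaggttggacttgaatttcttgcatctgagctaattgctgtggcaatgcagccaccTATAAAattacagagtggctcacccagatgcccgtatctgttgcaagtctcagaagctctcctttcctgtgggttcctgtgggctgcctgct
Both strands were searched for 6 motifs. For AP-1 the letters were TGANTCA, which 7.81% of all 32851 windows of this length held. The grainyhead motif was AACNGGTT, held by 2.09% of windows, and the KLF motif was CCACCC, held by 31.5%. For C/EBP the letters TTGCNNAA were used, found in 10.8% of windows. The TATA box was searched as TATAAA, present in 13.6%, and a nuclear receptor half-site as AGGTCA, present in 16.3%. Cers3 held 1 half-site, Sdr9c7 held 1 TATA box, and the Alox12b window held 0 matches. Among the windows not shown, Sult2b1 held 1 AP-1 motif in one of its windows and 1 KLF motif in the other, and no match overlapped another motif. No motif was found in more than 1 of the 8 windows, which says only that these letters are not in these bases.

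Other genes of the barrier lipid pathway, from 6 lists of 56 genes, also averaged lower. Of the 47 that could be tested, 40 averaged lower and 7 higher, with a median difference of -0.30. Over all genes 53.6% averaged lower, with a median of -0.02. None passed limma's adjusted threshold, and 3 lay under 0.05 before adjustment, all lower (5.61% of all genes were). Without miR-132 replicate 3, 38 of 47 averaged lower, with a median of -0.37 (-0.01 over all genes). Then 18 were under 0.05 before adjustment as lower genes (10.4% of all genes were), with 0 past adjustment (0.295% of all genes). A further 4 lay below the level filter, and 5 had no feature with 1 gene named here.

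Fatty acid elongation and acylceramide assembly held the 3 genes under 0.05, with 11 of 12 lower. The median of this list was -0.57 (-0.29 without miR-132 replicates 2 and 5). Elovl1 encodes the elongase that feeds chains to Elovl4, and read 10.26, 10.46, 10.06, 10.41 and 10.88 in controls and 9.58, 9.31, 10.48, 9.37 and 9.45 with miR-132. All miR-132 arrays but replicate 3 lay under the controls, and the difference was -0.78 ± 0.25 (SE) with limma's adjusted p at 0.596. Slc27a4, a transporter that activates very long fatty acids, differed by -0.60 ± 0.20 (SE), and Tecr, the last enzyme of the elongation cycle, by -0.73 ± 0.29 (SE). In Tecr 5 of 5 miR-132 arrays lay below the control mean. In ceramide backbone synthesis 8 of 10 genes averaged lower, with a median of -0.25 (-0.09 without miR-132 replicates 2 and 5). The subunits of serine palmitoyltransferase, which starts the backbone, differed by -0.61 (Sptlc1), -0.57 (Sptlc3) and -0.30 (Sptlc2), with limma's adjusted p of 0.632 to 0.656. Cers2 (0.03) and Cers5 (0.13), synthases that use other chain lengths than Cers3, averaged slightly higher, values picked for mention after they were seen.

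Of the genes for sphingolipid headgroups and ceramide release, 7 of 7 averaged lower, with a median of -0.32 (-0.51 without miR-132 replicate 3 and -0.10 without control replicate 1). Gltp, a glycolipid transfer protein, differed by -0.99 ± 0.45 (SE), the acid sphingomyelinase gene Smpd1 by -0.50 ± 0.37 (SE; -0.84 without miR-132 replicate 3 and -0.29 without replicate 5) and the sphingomyelin synthase gene Sgms2 by -0.66 ± 0.49 (SE; -1.02 without control replicate 1 and -0.37 without control replicate 2). Among lipoxygenases, epoxide hydrolases and related ichthyosis genes, 5 of 6 averaged lower, with a median of -0.61 (-0.16 without miR-132 replicates 2 and 5). Nipal4, an ichthyosis gene, differed by -0.74 ± 0.36 (SE), Ephx3, which opens the epoxide made by the Aloxe3 enzyme, by -1.08 ± 0.69 (SE; -1.67 without miR-132 replicate 3), and Alox12, the platelet-type lipoxygenase, by -0.17 ± 0.12 (SE). Alox8, named after its values were seen, differed by -2.32 ± 1.84 (SE), and single arrays weigh on that value. Replicate 5 stood at 4.96, the rest of the miR-132 group at 11.99 to 15.52 and the controls at 10.60 to 15.45.

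Lamellar body and lipase genes were lower in 7 of 7 cases but by little, with a median of -0.18 (-0.05 without miR-132 replicate 2, and 0.13 without miR-132 replicates 2 and 5). Tmem79, a lamellar body membrane protein, differed by -0.33, and Vipas39 and Vps33b, which act together in vesicle sorting, by -0.18 and -0.07. After quantile normalization Vps33b turned to 0.014. Lipid-sensing nuclear receptors split, with 2 of 5 lower and a median of 0.09 (-0.18 without miR-132 replicate 1). The partner receptor gene Rxra differed by -0.23 ± 0.11 (SE), the vitamin D receptor gene Vdr by -0.42 ± 0.21 (SE) and Nr1h3, a receptor for oxysterols, by 0.09 ± 0.07 (SE). None of these 6 lists held a gene past the adjusted threshold.

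**Figure D3:**
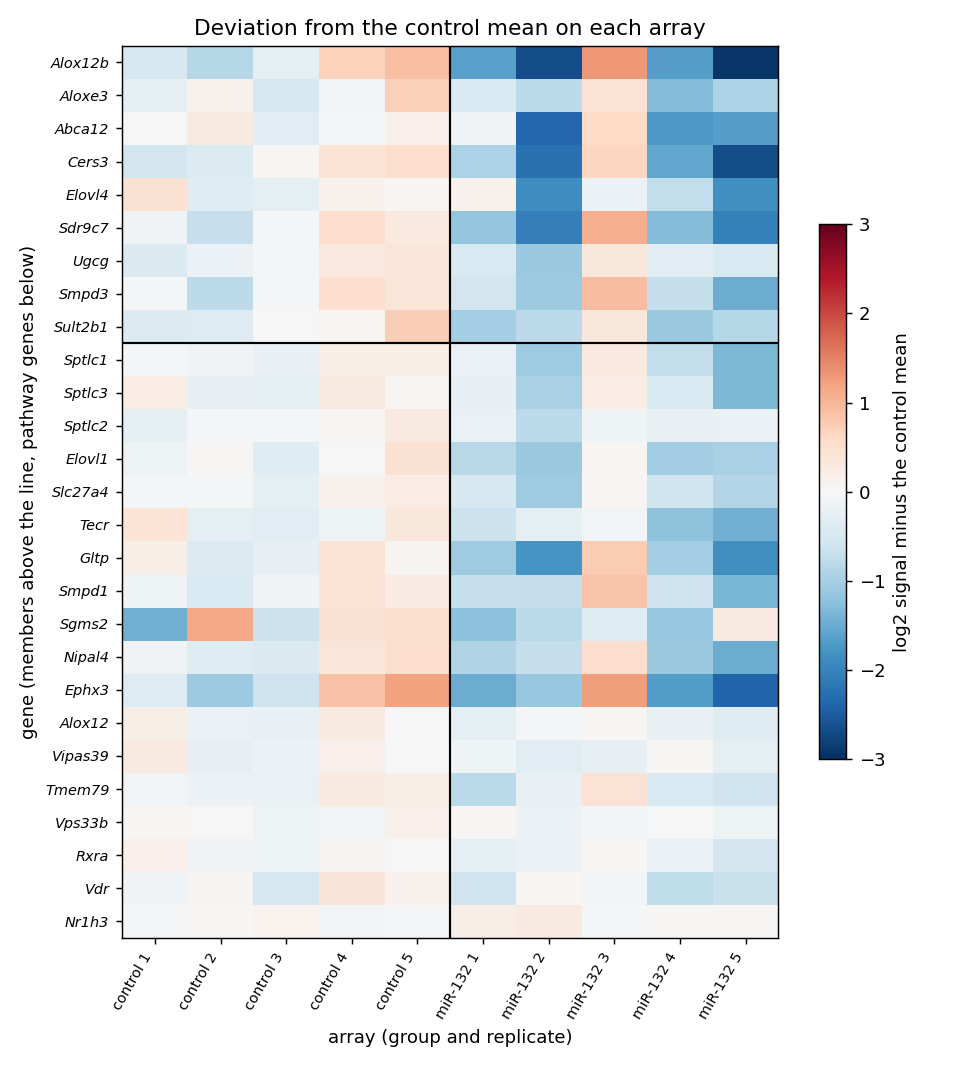
Log2 signal minus the control mean (colour, blue for lower and red for higher) of the 9 barrier lipid genes (above the line) and 18 other pathway genes (below it) on the 5 control and 5 miR-132 arrays. Replicates 2 and 5 are the bluest miR-132 columns in the upper block, where Alox12b reaches -2.91, and replicate 3 is red in 8 of the 9 genes.

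Markers of the cells that make these lipids followed the 9 genes only in part. Bulk tissue was measured, so fewer cells of a type and less RNA per cell cannot be told apart. Of 20 differentiated keratinocyte markers 12 averaged lower, 7 higher, and Krt1 stood at the limit on every array. Among the higher ones Krt10 (0.37) stood at the limit on 8 of 10 arrays, including every miR-132 array. The median was -0.33 (-0.56 without miR-132 replicate 3, -0.20 without replicate 2 and -0.022 without replicates 2 and 5). These markers ranged from -1.90 for Tgm3, a transglutaminase of the cornified envelope, to 1.38 ± 2.45 (SE) for Flg2, a filaggrin relative. Their median deviation from the control mean was 0.10, -1.17, 0.40, -0.96 and -0.43 on miR-132 replicates 1 to 5. For the barrier lipid genes it was -0.55, -1.86, 0.59, -1.31 and -1.66. By these medians, replicates 2 and 4 were low and replicate 3 high in both lists. Replicate 5 was low in the lipid genes more than in the markers, whose values there were mixed. On it Tgm3 read 7.83, below all controls (11.95 to 12.49), while Flg2 read 13.96, inside the control range (4.19 to 14.47). The summed log2 signal of the 20 markers was 255 to 283 in controls and 247 to 283 with miR-132. Some genes of envelope proteins had values of either sign with wide errors, namely Flg, filaggrin, at 0.28 ± 1.43 (SE), Hrnr, hornerin, at 0.96 ± 0.59 (SE) and Lor, loricrin, at -0.18 ± 0.87 (SE). Tgm1, the transglutaminase that acts on the envelope to which ceramides are bound, differed by -1.87 ± 0.60 (SE). Its miR-132 replicates 1, 2, 4 and 5 lay below every control. The same held for Casp14 (-1.12 ± 0.66, SE), Cdsn (-0.78 ± 0.35, SE) and Dsc1 (-0.76 ± 0.44, SE), named after their values were seen. By contrast, 7 of the 20 markers averaged higher. Whether the number or maturity of keratinocytes plays a part in the lipid gene values was not tested.

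Basal keratinocyte markers averaged lower in 10 of 10 cases with a median of -0.27 (-0.42 without control replicate 3 and -0.15 without control replicate 2), and their summed signal was 103 to 112 in controls and 99.8 to 106 with miR-132. Of these markers 2 stood at the signal limit on all controls and could only be equal or lower with miR-132, while the other 8 were all lower. Sebaceous gland markers, which bear on lipid genes because that gland also makes surface lipids, were lower in 5 of 7 cases with a median of -0.19 (-0.52 without miR-132 replicate 1, 0.10 without miR-132 replicate 5, and 0.52 once the signal of the hybridisation spikes was added to the fit). Their median deviation from the control mean was 0.72, -0.37, -1.22, 0.06 and -1.37 on miR-132 replicates 1 to 5. They were thus low on replicate 5, as the 9 genes were, but also on replicate 3, where the 9 genes were high. On replicate 2 the sebaceous median lay near that of control replicate 2 (-0.35), while the 9 genes were at their lowest (-1.86). The summed sebaceous signal was 56.5 to 65.3 in controls and 51.6 to 67.7 with miR-132. Of the other lists, neutrophil markers were lower in 10 of 10 cases (median -0.52, -0.82 without control replicate 1 and -0.21 without control replicate 4). Of the neutrophil markers 3 stood at the signal limit on all controls and could not be higher, while the other 7 were all lower. Skeletal muscle markers were lower in 8 of 8 cases (-0.41, -0.96 without control replicate 4, -0.18 without miR-132 replicate 4 and 0.12 with the spike covariate). Adipocyte markers were higher in 8 of 8 (0.42, 0.02 without miR-132 replicate 1 and 0.86 without control replicate 5). Hair follicle (0.08), macrophage (0.01), fibroblast (-0.20) and endothelial markers (-0.03) had medians within 0.20 of the control mean. When single arrays were left out these ran from -0.25 to 0.33, -0.20 to 0.13, -0.31 to -0.02 and -0.13 to 0.05. Of the hair follicle markers, 7 of 12 lay below the level filter. Among the fibroblast markers Dcn read 17.88 on every control (SD 0). Postn had a median and a highest value of 19.54 in both groups. How far such repeated values limit that list was not tested. No marker passed limma's adjusted threshold, and the part of these cells in the lipid gene values was not tested.

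**Figure D4:**
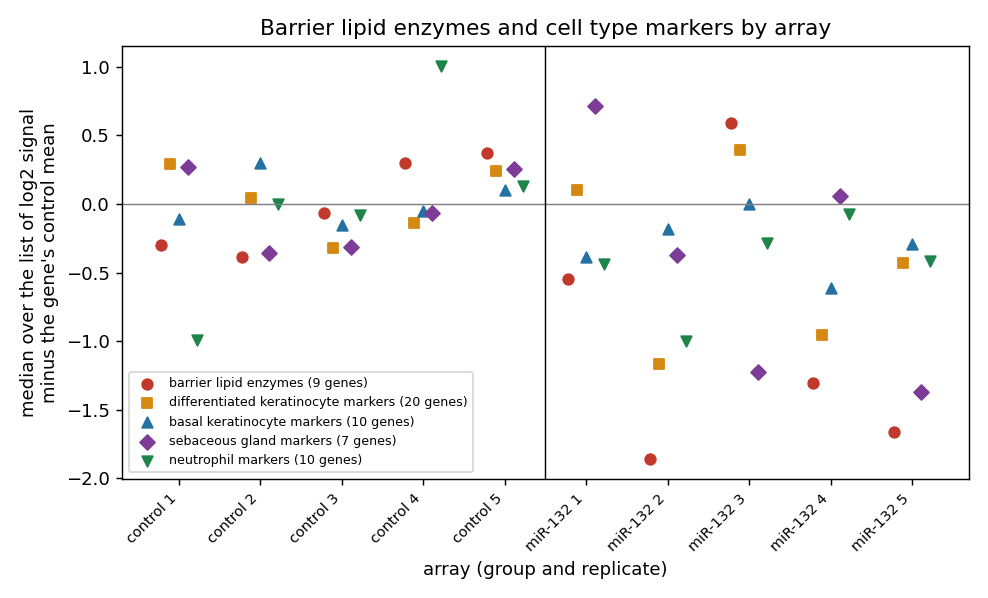
Median over each list of log2 signal minus the gene's control mean (vertical axis) on each array, for the 9 barrier lipid genes and 4 lists of cell type markers. The lipid genes (red circles) run from -1.86 on miR-132 replicate 2 to 0.59 on replicate 3, and the control arrays lie between -0.38 and 0.37.

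The genes whose signal followed the mean of the 9 most closely over the 10 arrays were Gjb2 (Pearson's r of 0.99), Gba2 (0.98), Osbpl2 (0.98), Tmem40 (0.98), Lce3f (0.98) and Cpeb4 (0.97). In all, 201 genes outside the 9 had an r over 0.9, a description over 10 arrays that differ strongly from each other. Gjb2, a connexin of keratinocytes, read 10.31, 10.17, 10.40, 10.70 and 10.64 in controls and 9.80, 9.25, 10.86, 9.75 and 9.15 with miR-132. Gba2, a glucosylceramidase outside the lysosome, differed by -0.74 ± 0.38 (SE), and its miR-132 replicates 1, 2, 4 and 5 lay at 6.47 to 7.13, under all controls (7.62 to 8.26). Lce3f, a late cornified envelope gene, had the widest difference of these 6, -1.97 ± 1.06 (SE), and Osbpl2, an oxysterol-binding protein gene, the narrowest, -0.19 ± 0.13 (SE). All 6 were under the controls on every miR-132 array but replicate 3. They were picked for following the 9 genes over these same arrays, so that pattern comes with the choice. None passed limma's threshold (adjusted p of 0.596 to 0.714).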

How the data were processed

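The deposited values are log2 signals that the authors made with Affymetrix Expression Console 1.4 and RMA (background correction, normalization between arrays, summary per transcript cluster), per the submitters' processing notes. The log2 scale is read from the values, whose shared limit of 19.93 is the log2 of 1000000. No source used here names the genome build. All 10 columns matched a sample by accession, and 0 pairs of arrays were identical.

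Of 72688 features, 31221 had 1 gene in the platform annotation and 1529 several; symbols were updated through RefSeq (GRCm38.p6). The brightest feature per gene by mean over all arrays was kept (each of the 9 genes had 1), and genes with a mean above 4.17, the median over features, were tested. The comparison used limma 3.58.1 in R 4.3.3 (lmFit, eBayes with trend, two-sided, Benjamini-Hochberg, threshold 0.05) and was tested on simulated data. Named genes were the 9 members, the 3 with the smallest p in each pathway list, and the 6 most like the members' mean. Members and lists were chosen with earlier results of these data known. Alternatives covered filters, normalization, features per gene, array weights, a covariate, a replicate block and left-out arrays. The shared replicate numbers did not pair the animals (correlations of deviations -0.03 to 0.16).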

Additional observations from a re-analysis of the deposited data

Results flagged for a closer look

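Of 68 sets of 5 values, 1 per gene and group over the genes named by rule and Mir132, 4 held a value far from the others by Dixon's criterion, and chance gives about 1 in 20. In miR-132 wounds Sdr9c7 read 12.36 on replicate 3, against 9.21 to 10.11 on the other arrays. Sult2b1 read 7.72 on replicate 3, against 6.25 to 6.60. Elovl1 read 10.48 on replicate 3, against 9.31 to 9.58. Sptlc2 read 9.84 on replicate 2, against 10.41 to 10.50.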

How the results depend on the processing

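All 9 barrier lipid genes averaged lower and 0 passed adjustment under each of the 23 alternatives, 3 of them chosen after seeing the data. When single arrays were left out, the median difference over the 9 genes lay between -1.08 and -0.66 (miR-132 replicates 3 and 2 left out, in that order), and the count of all genes called from 0 to 52. With the replicate number as a block, the median was -0.90, with 0 genes called and the lowest adjusted p of the 9 genes at 0.661; it changed no call, but with miR-132 replicate 3 left out as well it gave 0 genes called.

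With median centring and miR-132 replicate 3 left out, 67 genes were called, and the sphingolipid headgroup median was -0.58 (-0.65 with the replicate block and that array left out). Over single arrays left out, that median ranged from -0.51 to -0.10 and the nuclear receptor median from -0.18 to 0.13. Without miR-132 replicates 2 and 5, the medians were -0.089 for ceramide backbone synthesis, -0.14 for sphingolipid headgroups and 0.13 for lamellar body genes. With the hybridisation controls as a covariate, sebaceous markers stood at 0.52 and adipocyte markers at 1.78. Vps33b turned to 0.014 after quantile normalization and to 0.031 with miR-132 replicate 3 left out as well, where fibroblast markers stood at 0.16. The cause of these shifts was not tested. The number of arrays limits the precision.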
